A study of Mus musculus with 15 samples.

Results

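The genes described here are the axon guidance ligands and receptors of the mouse, taken by symbol from the protein-coding genes of GENCODE M21. They are the semaphorins and their plexin and neuropilin receptors, the ephrins and Eph receptors, the Slits and Robos, and the netrins with Dcc and the Unc5 receptors. The rule gave 69 genes of 21938 protein-coding genes, 35 ligands and 34 receptors. For each gene, the H3K4me3 summits of wildtype (WT) amygdala were read within 1 kb of any of its transcription start sites (TSSs) and in the rest of its body.

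The study performed H3K4me3 ChIP-seq on amygdala nuclei of adult male mice, in F1 hybrids of 129S1/SvImJ and C57BL/6J (129xB6 in the labels). Its genotypes were WT, Kmt2a-HET (heterozygous for the H3K4 methyltransferase gene Kmt2a), Kdm5c-KO (lacking the X-linked H3K4 demethylase gene Kdm5c) and DM (both mutations together). The list described here comes from the 2 WT mice, which carry neither mutation, and the mutant genotypes were not analysed here. Both WT mice are pooled in 1 list, so no value below has a spread between replicates and no test was made. The intervals beside shares hold counting error alone.

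Each line of the list is a summit, the base at which a peak of ChIP signal over input is highest, with a score taken to be −log10 of its q-value, so that a higher score is stronger evidence of enrichment. The list held 24162 summits, of which 24139 on chromosomes 1 to 19, X and Y were used. Scores ran from 1.18 to 342, with a median of 102.3. The score says how firmly a peak stands out from the input, and it grows with the depth of the library, which the list does not give. It is therefore not a level of transcription. Whole amygdala holds several cell types, and a low score in few cells cannot be told apart from a low level in many.

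Promoters of the markers of resident cell types all held a summit. The 7 neuronal markers had a median score of 199.8, the 4 oligodendrocyte markers 121.9 and the 4 astrocyte markers 62.0. The 4 microglial markers ran from 6.81 to 28.9 and the 4 endothelial markers from 15.5 to 33.8. The 3 genes known from amygdala neurons had a median of 98.4. Of 8 genes of tissues outside the brain, 1 had a promoter summit, Ckm, at 9.05, which also lay within 1 kb of the TSS of another protein-coding gene. Another of the 8, Apoa1, had a summit of 127.9 at 1 to 3 kb downstream of its outermost TSS, and 3 of the 8 had a summit in the gene body.

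Axon guidance cues steer growing axons, and many of them also act at synapses of the adult brain. Class 3 semaphorins are secreted and act through a neuropilin that binds them and a plexin that signals, while the other vertebrate semaphorins are held in the membrane and bind plexins directly. Ephrins are tethered to the membrane by a lipid anchor (ephrin-A) or a transmembrane segment (ephrin-B) and activate Eph receptor tyrosine kinases on the neighbouring cell. Slits are secreted proteins that repel axons through Robo receptors, and netrins are secreted proteins that attract axons through Dcc or repel them through Unc5 receptors. Trimethylation of lysine 4 on histone H3 marks the starts of active genes and is densest where promoters are rich in CpG.

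Stretches of DNA are shown first for genes whose values differ most, 150 bases each, on GRCm38, 5′ to 3′ on the strand of the gene, with CpG dinucleotides in capitals. None of them overlaps an annotated exon. The stretches of this set end at the base before the outermost TSS of the highest and the lowest scoring gene among the ephrins and among the Eph receptors. They are Efnb2 (chr8:8661243-8661392, minus strand, 19 CpG, promoter score 234.2), Efna4 (chr3:89338029-89338178, minus strand, 6 CpG, 57.6), Epha6 (chr16:60605532-60605681, minus strand, 10 CpG, 253.8) and Epha8 (chr4:136956817-136956966, minus strand, 30 CpG, 36.2). The densest CpG of the set stands before Epha8, the gene with the lowest score of it.
Efnb2: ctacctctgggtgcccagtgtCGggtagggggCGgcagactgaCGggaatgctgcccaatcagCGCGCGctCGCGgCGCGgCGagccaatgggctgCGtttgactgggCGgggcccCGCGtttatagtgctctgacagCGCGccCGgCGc
Efna4: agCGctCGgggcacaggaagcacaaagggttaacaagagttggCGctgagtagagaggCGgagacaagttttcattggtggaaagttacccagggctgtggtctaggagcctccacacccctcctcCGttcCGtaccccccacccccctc
Epha6: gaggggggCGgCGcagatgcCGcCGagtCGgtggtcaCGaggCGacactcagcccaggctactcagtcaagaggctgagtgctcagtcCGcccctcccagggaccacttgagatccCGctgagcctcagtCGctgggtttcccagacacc
Epha8: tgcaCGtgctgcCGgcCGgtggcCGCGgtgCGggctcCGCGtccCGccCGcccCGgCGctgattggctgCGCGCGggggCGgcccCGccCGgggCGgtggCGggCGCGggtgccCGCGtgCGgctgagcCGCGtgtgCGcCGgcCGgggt

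The next stretches stand before genes that had no summit within 3 kb of any TSS. They are Epha1 (chr6:42373269-42373418, minus strand, 7 CpG), Ntn5 (chr7:45683872-45684021, plus strand, 2 CpG) and Sema3g (chr14:31217710-31217859, plus strand, 7 CpG).
Epha1: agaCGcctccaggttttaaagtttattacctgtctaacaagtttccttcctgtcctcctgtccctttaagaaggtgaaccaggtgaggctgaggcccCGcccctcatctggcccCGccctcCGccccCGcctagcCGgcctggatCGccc
Ntn5: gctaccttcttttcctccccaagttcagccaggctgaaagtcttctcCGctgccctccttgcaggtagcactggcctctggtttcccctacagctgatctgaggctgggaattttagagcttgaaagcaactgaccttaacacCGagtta
Sema3g: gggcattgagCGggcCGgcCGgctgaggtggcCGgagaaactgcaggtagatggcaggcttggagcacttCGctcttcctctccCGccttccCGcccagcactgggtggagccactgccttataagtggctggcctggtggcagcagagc

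The last stretches are centred on summits in intron 1 of genes that had no promoter summit but a high score further downstream. They are Epha5 (chr5:84415382-84415531, minus strand, 3 CpG, score 263.0), Plxna4 (chr6:32586902-32587051, minus strand, 5 CpG, 228.5), Sema5a (chr15:32246321-32246470, plus strand, 7 CpG, 141.9) and Efna5 (chr17:62879915-62880064, minus strand, 10 CpG, 184.3).
Epha5: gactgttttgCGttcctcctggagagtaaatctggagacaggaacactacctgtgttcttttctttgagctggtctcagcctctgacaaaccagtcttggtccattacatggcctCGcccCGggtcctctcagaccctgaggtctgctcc
Plxna4: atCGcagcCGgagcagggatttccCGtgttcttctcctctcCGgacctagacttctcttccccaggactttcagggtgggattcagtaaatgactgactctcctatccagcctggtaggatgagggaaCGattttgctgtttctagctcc
Sema5a: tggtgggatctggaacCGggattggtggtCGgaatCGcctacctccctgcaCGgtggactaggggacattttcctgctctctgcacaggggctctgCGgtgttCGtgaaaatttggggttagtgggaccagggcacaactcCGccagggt
Efna5: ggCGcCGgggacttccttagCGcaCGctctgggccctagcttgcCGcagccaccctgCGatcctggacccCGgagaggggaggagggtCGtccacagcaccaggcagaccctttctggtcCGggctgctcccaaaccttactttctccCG

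Most axon guidance genes were marked at a start. A promoter summit was found in 59 of 69 genes, or 85.5% (Wilson 95% interval 75.3 to 91.9), against 64.7% of all protein-coding genes. The genes are long, with a median length of 46307 bp against 17425 bp for all protein-coding genes. Among genes of at least that median length, 30 of 35 members (85.7%) and 4592 of 5352 protein-coding genes (85.8%) had a promoter summit. Among shorter genes the shares were 29 of 34 members (85.3%) and 57.9% of protein-coding genes. Thus the share of the longer members was that of other long genes, and the difference from the background lay in the shorter ones.

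The highest promoter score of the 59 genes had a median of 171.1 (quartiles 105.2 and 204.0) and ran from 9.34 for Plxnc1 to 284.7 for Unc5c. The 14197 marked protein-coding genes had a median of 194.6 (quartiles 129.8 and 230.2), and 22 of the 59 reached it while 37 did not. Scores at or above the median of the list, 102.3, were found in 44 of the 69 genes (63.8%), against 52% of all protein-coding genes. A mark at the start was thus frequent among these genes and, where present, more often below than above the typical score of a marked promoter.

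Ligands and receptors were marked equally often. A promoter summit was found in 30 of 35 ligands (85.7%, 70.6 to 93.7) and 29 of 34 receptors (85.3%, 69.9 to 93.6). The median score was 166.7 for ligands, with a range from 55.0 to 234.2, and 180.6 for receptors, with a range from 9.34 to 284.7. The receptors held the extremes on either side. The plot of members by family gives the value of each gene.

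**Figure D1:**
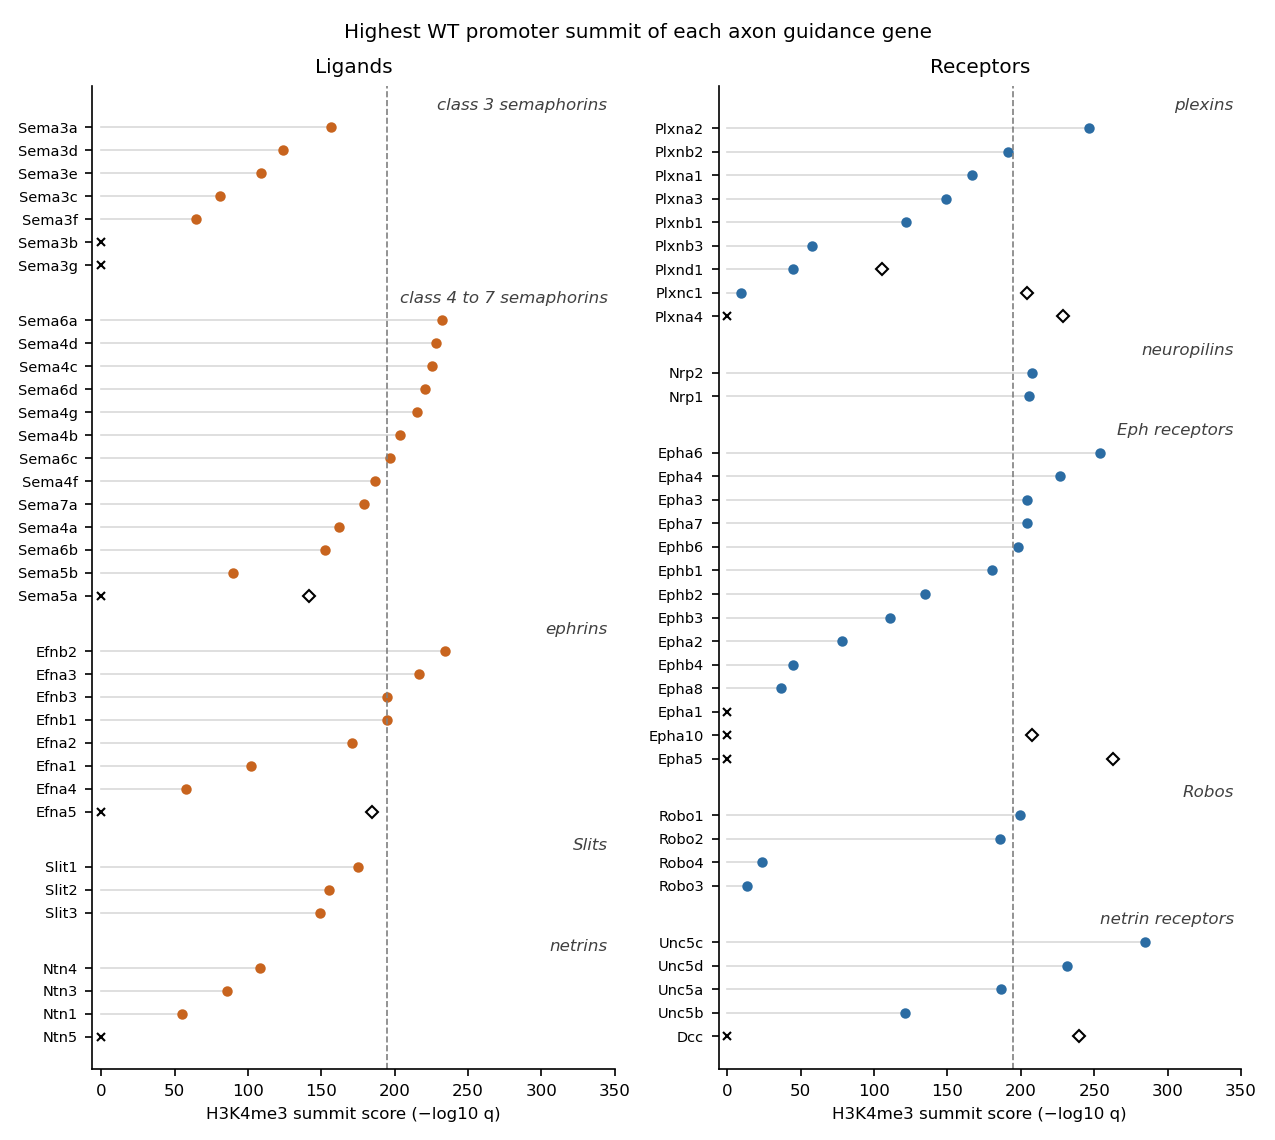
Highest promoter summit score (−log10 q, horizontal axis) of each ligand (left, orange) and receptor (right, blue), by family. A cross at 0 marks a gene with no promoter summit, an open diamond a summit at or above the list median 1 to 3 kb downstream of the outermost TSS, and the dashed line the median of all protein-coding genes with a promoter summit, 194.6. Every class 3 semaphorin, Slit and netrin lies left of the line, and 8 genes carry a diamond.

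Secreted ligands had a lower median score than membrane-held ones. The 14 secreted ligands (class 3 semaphorins, Slits and netrins) had a promoter summit in 11, with a median of 109.2 and a range from 55.0 to 175.1, so that 0 of them reached the 194.6 of the typical marked gene. The 21 membrane ligands (the other semaphorins and the ephrins) had one in 19, with a median of 194.8 and a range from 57.6 to 234.2, and 11 of them reached 194.6. The ranges overlap, and the membrane ligands with the lowest scores, Efna4 at 57.6, Sema5b at 89.5 and Efna1 at 102.2, lie among the secreted ones. The secreted ligands are also longer, with a median of 149698 bp against 22754 bp, and their starts are poorer in CpG, with a median observed over expected ratio of 0.583 against 0.678. The part of length and CpG in the difference was not tested.

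**Figure D2:**
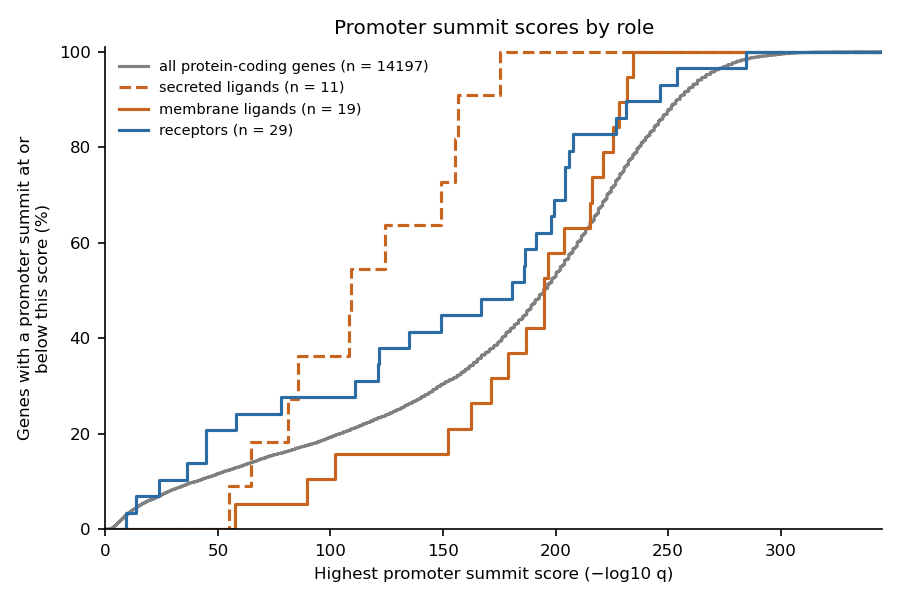
Cumulative share (%) of genes by highest promoter summit score (−log10 q), for all protein-coding genes with a promoter summit (grey, n = 14197), secreted ligands (dashed orange, n = 11), membrane ligands (solid orange, n = 19) and receptors (blue, n = 29). The secreted ligands end at 175.1, left of the median of all genes, and the receptors span from 9.34 to 284.7.

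Genes of the Wnt, Fgf, Bmp and Gdf families had a lower median score than the members and a wider range than the secreted guidance ligands. Of 63 such genes, 44 had a promoter summit (69.8%, 57.6 to 79.8), with a median of 74.2, and 16 of the 63 (25.4%) scored at or above 102.3. Their scores ran from 2.04 to 257.2, and 4 of them reached 194.6, against 0 of the secreted guidance ligands. The secreted guidance ligands scored at or above 102.3 in 7 of 14 (50.0%). The median of the growth factors lay below the 109.2 of the secreted guidance ligands and the 171.1 of all members.

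Within the secreted semaphorins, 5 of 7 genes had a promoter summit. Sema3a, which makes growth cones collapse, had the highest score, 156.5, at 117 bp downstream of an internal start. It was followed by Sema3d at 124.2, Sema3e at 109.2 and Sema3c at 81.1. Sema3f, a ligand of neuropilin-2, had the lowest, 64.5, at 147 bp downstream of a start. Sema3b and Sema3g had none. The neuropilins that bind this class stood higher, but the plexins did not all do so. Plxna3 scored 149.0, below Sema3a, and Plxnd1, the receptor of Sema3e, scored 44.6, below Sema3e. Nrp1, the neuropilin that binds Sema3a, scored 205.9, and Nrp2, which binds Sema3f, scored 207.7, each above all the class 3 ligands.

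Of the 13 other semaphorins 12 had a promoter summit, with a median of 200.2, the highest of the ligand families. All 6 class 4 genes were marked, with a median of 209.6, from Sema4a at 162.4 to Sema4d at 228.0. Sema4d is a ligand of plexin-B1. The 4 class 6 genes ran from Sema6b at 152.2 to Sema6a at 231.9, the highest semaphorin, and these proteins signal through plexin-A receptors. Sema7a, which carries a lipid anchor, scored 178.9. In class 5, Sema5b scored 89.5 and Sema5a had no promoter summit.

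Of the 9 plexins, the signalling receptors of semaphorins, 8 had a promoter summit, with a median of 135.2 and a range from 9.34 to 246.5. Plxna2 scored 246.5, at 374 bp downstream of the start of its protein-coding transcript, and Plxna1 and Plxna3, of the same class, scored 167.0 and 149.0. Plxna4 had no promoter summit. Among class B plexins, Plxnb2 scored 191.1, Plxnb1, the receptor of Sema4d, 121.5 and Plxnb3 58.0. Plxnd1, the receptor of Sema3e, scored 44.6 and Plxnc1, the receptor of Sema7a, 9.34. For the last pair the promoter window did not hold the highest summit of the gene, as described further on.

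Among the ephrins the B class had the higher median, 194.8. All 3 ephrin-B genes were marked, Efnb2 at 234.2, Efnb3 at 194.8 and Efnb1 at 194.6. Of the 5 ephrin-A genes 4 were marked, with a median of 136.6, Efna3 at 216.4, Efna2 at 171.1, Efna1 at 102.2 and Efna4 at 57.6, while Efna5 had no promoter summit. Efna1, Efna3 and Efna4 lie near each other on chromosome 3, all on the minus strand, with gaps of 32756 bp and 10424 bp between them. Of these, Efna3, the middle one, had the highest score.

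Among the marked Eph receptors the B class had the lower median. Scores at or above 102.3 were found in 4 of 5 EphB and 4 of 9 EphA receptors. All 5 EphB receptors were marked, with a median of 134.8, from Ephb4, known from blood vessels, at 44.9 to Ephb6, a receptor without kinase activity, at 197.9. Ephb1, Ephb2 and Ephb3 scored 180.6, 134.8 and 110.7. Of the 9 EphA receptors 6 were marked, with a median of 204.0. Epha6 scored 253.8 and Epha4, a receptor of both ephrin classes, 226.6. Epha3 and Epha7 were tied at 204.0. Epha2 scored 78.2 and Epha8 36.2, the lowest. Epha1, Epha5 and Epha10 had no promoter summit. Epha8 and Ephb2 lie 93430 bp apart on 1 strand of chromosome 4, with scores of 36.2 and 134.8.

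All 3 Slits were marked within a narrow range, Slit1 at 175.1, Slit2 at 155.3 and Slit3 at 149.0. Their receptors fell into a high and a low pair. Robo1 scored 199.4 and Robo2 186.1, and these are the main neuronal Slit receptors. Robo3, which acts in axons that cross the midline, scored 13.4. Robo4, a Robo of endothelial cells, scored 23.6, within the range of the endothelial markers (15.5 to 33.8). Both scores lay within the range of the microglial markers (6.81 to 28.9), so the ranges do not tell the cell types apart. Ephb4, named above as known from blood vessels, scored 44.9, outside the range of either marker list. Which cells carry these marks was not tested. Robo3 and Robo4 lie 553 bp apart on chromosome 9, with their ends facing each other and their starts on the far sides, and each had 1 promoter summit.

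Netrins were the family with the lowest median, 85.6, in 3 of 4 genes. Ntn4 scored 108.2, Ntn3 85.6 and Ntn1, the founding member, 55.0, and Ntn5 had no promoter summit. All 4 Unc5 receptors scored above all netrins, with Unc5c at 284.7, Unc5d at 231.4, Unc5a at 186.4 and Unc5b at 121.2. Unc5c was the highest of all 69 genes, above 98.5% of the protein-coding genes with a promoter summit. Dcc, the other netrin receptor, had no promoter summit.

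The 10 genes without a promoter summit were Sema3b, Sema3g, Sema5a, Efna5, Ntn5, Plxna4, Epha1, Epha5, Epha10 and Dcc. In 6 of them a summit at or above the list median lay 1 to 3 kb downstream of the outermost TSS. Epha5, an ephrin-A receptor of the forebrain, had a score of 263.0 at 1350 bp downstream of its nearest start, in intron 1. Dcc had 240.0 at 1640 bp, in intron 1. Plxna4 had 228.5 at 1216 bp, in intron 1.

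These are among the highest scores of the whole set, and only the value of Unc5c exceeded that of Epha5. Epha10, an Eph receptor without kinase activity, had 207.9 at 1035 bp, just outside the window. Efna5, an ephrin of topographic maps, had 184.3 at 1155 bp and Sema5a had 141.9 at 1292 bp, both in intron 1.

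Summits of this kind were also the highest of a pair of genes that did have a promoter summit. Plxnc1 had 204.2 at 1103 bp, in the coding part of exon 1. Its promoter value of 9.34 lay at the start of a processed transcript in intron 20, 115263 bp downstream of the outermost TSS. Plxnd1 had 105.4 at 1720 bp, in intron 1, and its promoter value of 44.6 lay 172 bp upstream of the start. The low promoter scores of these receptors therefore did not describe the highest summit near their starts.

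In all, 8 of the 69 genes (11.6%) had such a summit, against 1.13% of protein-coding genes. Of the 8 genes of tissues outside the brain, 1 had one (12.5%). Among genes without a promoter summit the counts were 6 of 10 and 162 of 7741 (2.09%). By the CpG ratio at the outermost TSS (rich at 0.6 or more), they were 4 of 4 CpG-rich and 2 of 6 CpG-poor members. For all protein-coding genes they were 111 of 451 CpG-rich (24.6%) and 51 of 7290 CpG-poor ones (0.70%). These shares were not compared among genes of like length. The receptors held 6 of the 8 and the ligands 2. A score at or above 102.3 either within 1 kb of a TSS or in this downstream stretch was found in 52 genes (75.4%), against 53% of protein-coding genes, and in 8 of 9 plexins and 5 of 5 netrin receptors. With a window of 3 kb on both sides of a TSS, 66 of 69 genes had a promoter summit, against 67.1% of protein-coding genes. The 3 genes left were Epha1, Ntn5 and Sema3g, which held 0 summits in the gene. Sema3b held 1 summit, of 18.9, in intron 18.

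**Figure D3:**
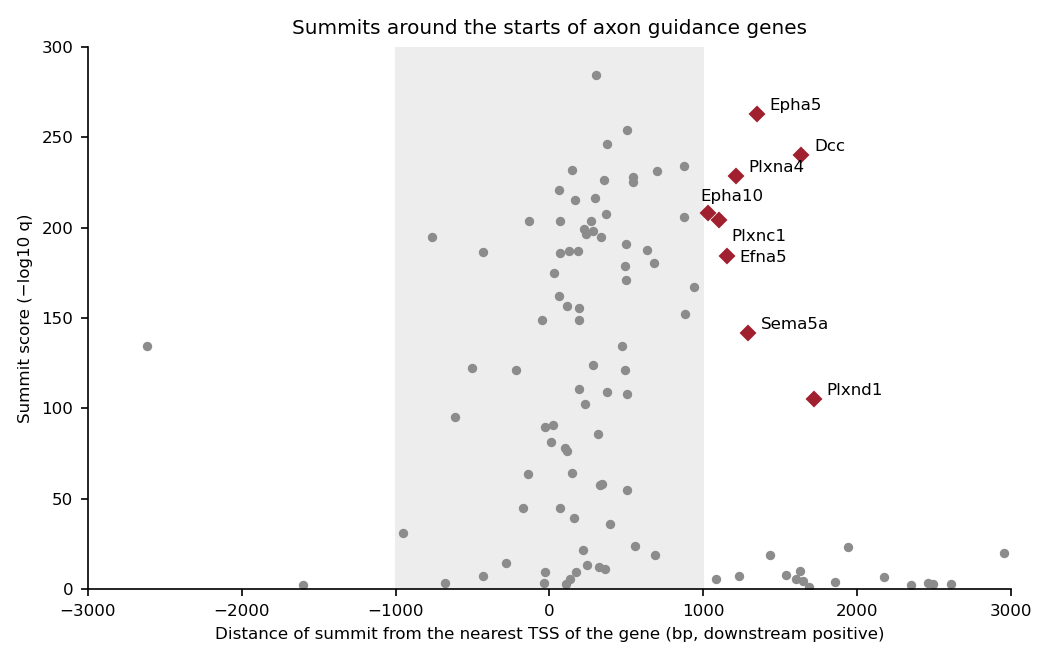
Score (−log10 q, vertical axis) of the summits of the 69 genes against its distance from the nearest TSS of its gene (bp, downstream positive, to 3 kb on both sides). The grey band is the window of 1 kb on both sides. The 8 red diamonds are the summits at or above the list median 1 to 3 kb downstream of the outermost TSS, from Plxnd1 at 105.4 to Epha5 at 263.0, and 6 of them belong to genes with no point in the band.

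Inside the window most best promoter summits also lay downstream, in the members as in all protein-coding genes. Of the 59 best promoter summits 51 lay downstream of their nearest TSS (86.4%), against 79.3% for all protein-coding genes, and the median distance was 285 bp against 171 bp. In the lists given further on, the values were 89.1% and 351.5 bp for intracellular effectors and 94.7% and 527 bp for other guidance cues. For the Wnt, Fgf, Bmp and Gdf genes they were 70.5% and 217 bp. The difference from all protein-coding genes was not tested. The extremes were Efnb1, at −762 bp from an internal start, and Plxna1, at 943 bp. By the transcript with the longest coding sequence, 33 of the 59 lay in an intron (30 of them in intron 1), 16 in an untranslated and 3 in a coding part of an exon and 7 outside the transcript. In 14 genes the best promoter summit was more than 1 kb downstream of the outermost TSS and was counted through an internal start. In 8 of these it was 1 to 3 kb downstream, as for Plxna2 (1981 bp), Nrp1 (1672 bp), Epha7 (2165 bp) and Efnb1 (1239 bp). The counts by intron and exon and by internal start were not made for all protein-coding genes. Whether they are particular to the members was not tested.

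No member shared its best promoter summit with a TSS of another protein-coding gene within 1 kb (0 of 59), against 18.5% of the protein-coding genes with a promoter summit. The share was also low in related lists, 4.55% for the Wnt, Fgf, Bmp and Gdf genes, 5.26% for other guidance cues and 8.70% for intracellular effectors. In 7 members the best promoter summit lay within 1 kb of the start of a noncoding or other gene. These were Efna4 (4731419I09Rik), Epha4 (Gm28386), Epha6 (Gm9017), Epha7 (Gm11915), Ntn3 (BC028777), Sema4c (D430040D24Rik) and Unc5c (Gm15688). A summit has no strand, so the mark at these starts cannot be told apart from that of the member. The count of noncoding or other starts was not made for all protein-coding genes.

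Promoter summits at least 1 kb apart were found in 14 genes (20.3%), against 8.88% of protein-coding genes. In Plxna1 and Robo2 both such summits lay nearest to the same start, and in the other genes nearest to different starts. Among members of at least 46307 bp they were found in 10 of 35 (28.6%), against 20.2% of protein-coding genes of that length. The shares were higher than the members' in 2 related lists, 36.2% of intracellular effectors and 33.3% of other guidance cues. Of the Wnt, Fgf, Bmp and Gdf genes 17.5% had such summits. In 3 members more than 1 of the separate summits scored at or above the list median. Sema6d had 187.8 at its outermost start and 220.9 at an internal start shared by several coding transcripts, 519753 bp apart. Sema4b had 187.2 and 203.9, 11803 bp apart. Plxna1 had 122.6 and 167.0, 1446 bp apart on either side of the same start.

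In other genes a strong start stood beside a weaker one. Robo1 had 76.4 at the outermost start, 3.63 at the next marked start and 199.4 at the third, which lies 355125 bp into the gene. Slit3 had 149.0 at its outermost start and 90.7 at a noncoding transcript 423533 bp away, in intron 5. Sema3a had 5.34 at the outermost start and 156.5 at a start of a coding transcript 273711 bp away. Hence the higher summit of Sema3a and Robo1 was the internal one.

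Sema4a had 4 such summits, of 39.1, 162.4, 3.63 and 12.5 from the outermost start inwards. Ntn1 had 18.8 at the outermost start and 55.0 at the start of the transcript 13812 bp away. Ephb2 had 95.3 upstream and 134.8 downstream of its starts, 1234 bp apart, and Robo2 had 31.3 and 186.1, 1020 bp apart. The remaining genes each had a minor summit at an inner start, of 21.6 in Ephb3, 10.9 in Sema4d, 9.63 in Sema6b and 2.62 in Slit2, the gene whose main summit scored 155.3.

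Summits in the body of a gene, more than 1 kb from every TSS, were found in 41 of 69 genes (59.4%), against 14.7% of protein-coding genes. The share rises with length. Of the members of at least 46307 bp 25 of 35 had one (71.4%), against 32.2% of protein-coding genes of that length. Of the shorter members 16 of 34 had one (47.1%), against 8.99%. The trait was also frequent in related lists, with 57.1% of other guidance cues, 40.4% of intracellular effectors and 31.7% of Wnt, Fgf, Bmp and Gdf genes. Of the 7 neuronal markers 6 had a body summit. These lists were not compared among genes of like length. The 65 body summits had a median score of 8.07, and 35 of them scored below 10. By position, 33 lay in intron 1, 21 in other introns, 8 in exons and 3 outside the transcript with the longest coding sequence.

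Strong body summits were few and lay near the start. Of the 65, 12 scored at or above the list median, in 11 genes, and 8 of the 12 were those described 1 to 3 kb downstream of the outermost TSS. Beyond 3 kb from it, 50 summits had a median of 7.87, and 4 scored at or above 102.3. Ntn3 had 185.6 in exon 6, at its 3′ end, within 1 kb of the start of its neighbour Tbc1d24. Epha3 had 157.5 in intron 1, 6031 bp downstream of its nearest start. Epha10 had 152.1 in intron 2, within 1 kb of the start of the antisense gene 1700125G02Rik. Plxnb2 had 134.7 in intron 1, 7482 bp downstream of the outermost TSS.

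Thus the body summits of Epha3 and Plxnb2 were the ones of this height that lay at no annotated start of any gene and far from the outermost one. The next in height were Unc5a with 90.9 in intron 1, Ephb2 with 82.9 in intron 3, Nrp2 with 61.5 in intron 1, at the start of the antisense gene Gm29083, and Unc5b with 40.1 in intron 1. Robo1 had the most body summits, 5, from 2.84 to 8.61, spread over a gene of 737790 bp. Dcc, the longest member at 1097436 bp, had 2 body summits beside the strong one, of 3.63 and 6.20.

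**Figure D4:**
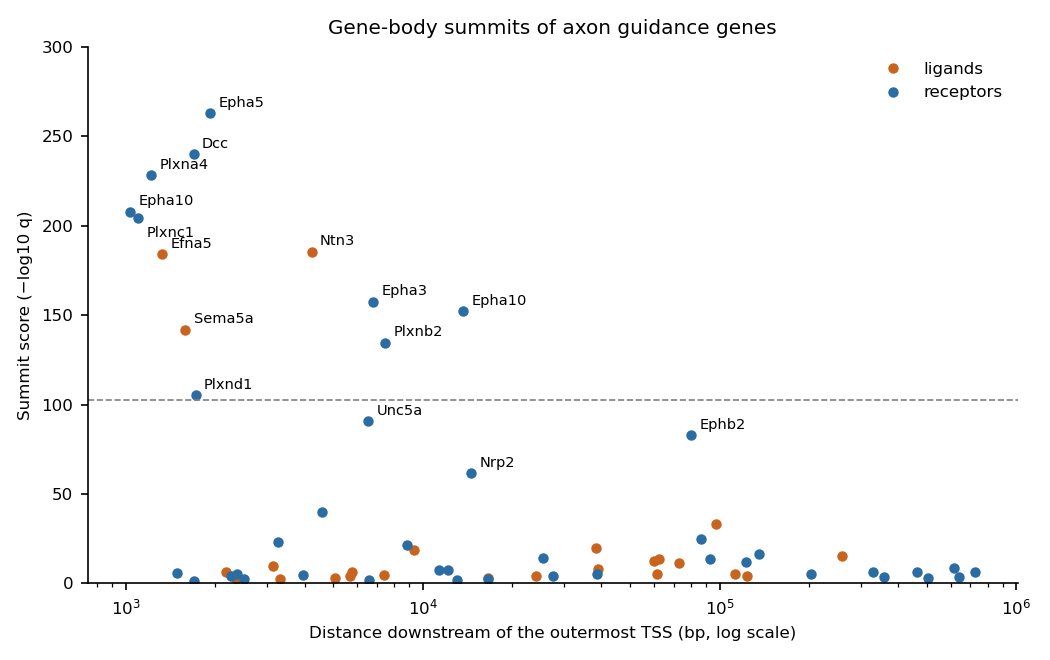
Score (−log10 q) of the 65 gene-body summits against their distance downstream of the outermost TSS (bp, log scale), ligands in orange and receptors in blue, with the list median as a dashed line. Of the 12 summits above the line 8 lie within 3 kb of the start, and nearly all points further out lie close to the bottom of the plot.

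Promoter CpG content in general goes with H3K4me3, but the ratio at the outermost TSS did not order these genes by score. The observed over expected CpG ratio, in 500 bp on both sides of the outermost TSS, had a median of 0.678 in members and 0.552 in all protein-coding genes. Of the 46 CpG-rich members (0.6 or more) 42 had a promoter summit (91.3%, 79.7 to 96.6), against 95.5% of CpG-rich protein-coding genes. The 4 without were Efna5, Epha5, Plxna4 and Sema5a, and all 4 had the downstream summit in intron 1. Among all CpG-rich protein-coding genes without a promoter summit, 111 of 451 (24.6%) had such a downstream summit.

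CpG-poor members were marked more often than other CpG-poor genes. Of the 23 of them 17 had a promoter summit (73.9%, 53.5 to 87.5), against 38.5% of CpG-poor protein-coding genes. Examples are Plxna2, with a ratio of 0.113 and a score of 246.5, Robo1, with 0.212 and 199.4, and Sema4a, with 0.181 and 162.4. In each of these the ratio was taken at the outermost TSS and the best summit lay more than 1 kb downstream of it. Epha6 had a ratio of 0.542 and a score of 253.8. The median score was 177.0 in CpG-rich and 156.5 in CpG-poor members, against 205.9 and 151.0 in all protein-coding genes.

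Across the 59 genes with a promoter summit, score and CpG ratio had a Pearson r of 0.07 and a Spearman rho of 0.03, against 0.34 and 0.27 across 14197 protein-coding genes. With the logarithm of gene length the members had 0.30 and 0.25, against 0.08 and 0.06. These are correlations across genes of 1 list, which are not independent replicates. In 14 of the 59 members the best summit lay more than 1 kb from the outermost TSS, where the ratio was taken. For these the ratio and the score describe different places, and a ratio at the marked start was not tested. The CpG-rich members with the lowest promoter scores were Plxnc1 (ratio 0.977, score 9.34), Epha8 (0.882 and 36.2) and Plxnd1 (0.876 and 44.6). For Plxnc1 and Plxnd1 the highest summit near the outermost TSS lay outside the window, at 204.2 and 105.4. The 9.34 of Plxnc1 lay 115263 bp from the TSS at which its ratio was taken.

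**Figure D5:**
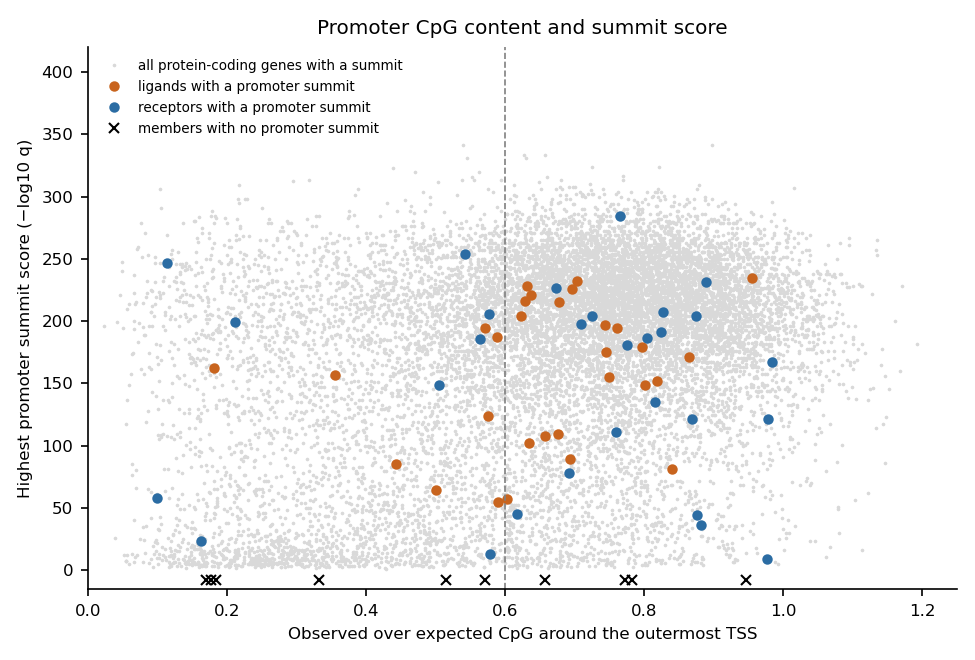
Highest promoter summit score (−log10 q) against the observed over expected CpG ratio around the outermost TSS, for ligands (orange), receptors (blue) and all protein-coding genes with a promoter summit (grey). Crosses are the 10 members without a promoter summit and the dashed line marks a ratio of 0.6. Of the crosses 4 lie right of the line, and members on both sides of it reach scores above 200.

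Motifs were searched in the promoters that RefSeq gives on its GRCm38 build, 300 bases each, on both strands. Of the 69 genes 59 matched by symbol, with 75 promoters. The TATA motif TATAAA was found in 2 of them (2.67%), those of Efnb2 and Slit2, against 12.1% of 20150 promoters of protein-coding genes. The GC-box motif GGGCGG, which shares no letter with the TATA motif on either strand and so cannot overlap it, was found in 53 (70.7%), against 47.8%. This motif holds a CpG, and the members are richer in CpG at the outermost TSS (median ratio 0.678 against 0.552). The shares of both motifs were not compared among promoters of like CpG content. Among the stretches printed above, that before Efnb2 holds the TATA motif on its opposite strand. A match of letters is not a binding site.

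Genes that act with these cues were given as further lists. Of 47 intracellular effectors of guidance receptors 46 had a promoter summit (97.9%), with a median of 210.1, above the 180.6 of the receptors themselves. They include Rhoa, a GTPase of the growth cone, at 278.4 and Dpysl2, a mediator of semaphorin collapse, at 268.8. The one without, Srgap3, a GTPase-activating protein of the Slit and Robo pathway, had 264.7 at 1 to 3 kb downstream of its outermost TSS, like the 8 members above. Of 21 other guidance cues, receptors and adhesion molecules 19 had a promoter summit, with a median of 188.9, from Draxin, a netrin antagonist, at 43.0 to Flrt3, an Unc5 and latrophilin ligand, at 280.4. Flrt1 and Lrrc4 had none.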

How the data were processed

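H3K4me3 was measured by native ChIP-seq, with MNase-digested chromatin of adult male amygdala nuclei, spiked-in synthetic nucleosomes and input controls. By the study's Methods, reads were mapped with Bowtie to mm10, those with a single location were retained, and the authors' peak caller was MACS2 2.1.0.20140616, run against input. The deposited WT list gives 1 score per summit, taken from its values and layout to be −log10 of its q-value, since the list names no scale. Depth per mouse is not given by the list, and whether black-list regions were removed is not stated for it. Per-sample columns with no match numbered 0, and 23 summits on other sequences were set aside.

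Summits were assigned with GENCODE M21 on GRCm38, with pysam 0.24.0, numpy 2.4.6 and pandas 2.3.3. A promoter was 1 kb on both sides of any TSS, as in the Methods, and separate summits were at least 1 kb apart. Introns and exons are those of the transcript with the longest coding sequence. Assignment was checked on simulated summits. Intervals are Wilson 95% intervals. No p-value is given, because genes of 1 pooled list are not replicates. The members and lists were chosen with earlier results of these data known. Genes named in full are the highest and lowest of each family, those without or with separate promoter summits and those with the highest body summits; the other members are named with their score alone. The division into secreted and membrane ligands was formed from the families. Printed stretches were taken upstream of a TSS or in introns, not around promoter summits as planned, so that they hold no exon. Alternatives were the promoter window, the TSSs used, the score threshold and joined summits.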

Additional observations from a re-analysis of the deposited data

How the results depend on the processing

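Of 71 alternative values 44 stayed within the interval or within 1.5 times of the reported value and 27 moved. The median scores of members, ligands and receptors all stayed within the spread of the reported value. With a promoter window of 500 bp, the share with a promoter summit was 69.6% of members, 67.6% of receptors and 57.1% of protein-coding genes. With 3 kb it was 95.7% of members, 94.3% of ligands, 97.1% of receptors and 67.1% of protein-coding genes. A window of 2 kb, chosen after seeing the data, gave the same 3 values for members, ligands and receptors (95.7%, 94.3% and 97.1%) and 66.4% for protein-coding genes. With the outermost TSS alone it was 73.9% of members and 58.2% of protein-coding genes, and with the TSSs of coding transcripts alone 63.5% of protein-coding genes. With summits at or above the list median alone it was 63.8% of members, 65.7% of ligands, 61.8% of receptors and 52.0% of protein-coding genes. Members with a body summit fell from 41 to 27 with the 3 kb window and to 11 with summits at or above the list median, and body summits from 65 to 39 and 12. Members with separate promoter summits numbered 14, and 7 with 500 bp, 29 with 3 kb, 25 with 2 kb, 3 with the outermost TSS alone and 3 with summits at or above the list median. These changes follow from how each alternative is built (a wider or narrower window, fewer starts or fewer summits).

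No paired analysis was possible because the list pools the WT mice and no result comes from a test, and for the same reason no mouse was left out.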

Other observations

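Summits outside the members were also read, up to 20 kb from the gene, where the nearest protein-coding TSS was that of a member. There were 8, at 7 genes, with a median score of 34.8, and 7 of them lay upstream. In 2 the score was at or above the list median. These were a summit of 169.5 at 2643 bp upstream of Ntn3, within 1 kb of the start of BC028777, and one of 135.4 at 1684 bp upstream of Sema6b, which lay in no annotated gene and at no annotated start.

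Sema3b, which had no promoter summit, had a summit of 96.0 at 3324 bp upstream of its outermost TSS, in no annotated gene. Efna2 had a summit of 63.3 downstream of its 3′ end, 11443 bp from its start. The remaining flanking summits, at Efna1, Ephb1, Sema6b and Unc5c, scored 6.24, 3.63, 5.33 and 6.20.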
